A study of Mus musculus with 9 samples.

Results

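Genes of heart muscle were followed in RNA of mouse lung. They are 10 genes of the 8251 that the array names with a single symbol: Myh6, Myl4, Myl7, Actc1, Tnnc1, Tnnt2, Tnni3, Mb, Ryr2 and Nppa. They were found as every probe set whose only gene symbol is one of these, which gave 13 probe sets of the 12422 on the array that are not controls. Testing required 3 or more of the 9 arrays above a detection limit of 44.7 intensity units, which left 11 probe sets of 9 member genes, and 7920 probe sets in all.

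Total lung RNA of C57BL6 mice was put on 9 arrays, 3 in each of 3 groups. The agonist group had an OVA (ovalbumin) challenge together with an agonist of the prostaglandin E2 receptor EP3. The OVA group was challenged with OVA alone, and the saline group with saline. All 3 groups carry the name of the OVA-induced model in their labels, saline included. The titles of the agonist and OVA arrays carry a time of 24 h. The identity and dose of the agonist, the sensitization schedule and the age and sex of the mice are not stated in the labels. Nor do they state that each array is a separate mouse, so a p-value covers only the spread between these samples, which may be technical.

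In mice, cardiomyocytes extend from the left atrium into the walls of the pulmonary veins inside the lung. These cells are atrial in type. They contract with the heavy chain Myh6 and the light chains Myl4 and Myl7, pulling on filaments of the actin Actc1. The troponin complex of Tnnc1, which binds calcium, Tnnt2, which holds on to tropomyosin, and Tnni3, which inhibits, switches the thin filament on. Ryr2 releases the calcium, Mb stores oxygen, and Nppa is the precursor of atrial natriuretic peptide.

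The label was checked against marker genes, first the members themselves. The atrial light chains Myl4 and Myl7 and the heavy chain Myh6 exceeded the detection limit on all 9 arrays, as did Tnnt2, Tnni3, Actc1 and Nppa. The probe sets of the ventricular light chains Myl2 and Myl3 lay below it on all 9, but Myh7, the heavy chain of ventricular and slow muscle, exceeded it on all agonist and saline arrays on 98616_f_at. The other Myh7 probe set, 161547_f_at, lay below the limit on all 9. The atrial genes Sln, Kcnj3 and Kcnj5, a regulator of the calcium pump and the channels of the acetylcholine-activated potassium current, lay below the limit on all 9, so not every atrial marker was detected. Of 20 skeletal muscle markers on the array, 8 lay below the limit on every array, among them the fast myosins Myh1, Myh2 and Myh4 and skeletal actin Acta1. Of the 11 that were tested, 4 exceeded it on all 9 arrays: Tnnc2 at 202 to 371 (a probe set with the family ending _f_at), Pvalb at 363 to 626, Casq1 at 94.6 to 221 and Myod1 at 130 to 179. These 4, chosen after their values were seen, are a troponin, a calcium buffer, a calcium store protein and a transcription factor of skeletal muscle, so skeletal muscle RNA is not shown to be absent. Ryr2 and the other probe set of Mb (100615_at) did not reach the limit on any array and were not tested. In whole lung, fewer heart muscle cells and less of a transcript in each cell cannot be told apart.

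Gene positions are from RefSeq's table of mouse genome build GRCm38.p6. Myh6 and Tnnc1 lie on chromosome 14, at chr14:54941921-54968017 and chr14:31208312-31211729. Myl4 and Myl7 lie on chromosome 11, at chr11:104546017-104587215 and chr11:5896637-5898782. Tnnt2 is at chr1:135836315-135852268, Actc1 at chr2:114047282-114052875, Nppa at chr4:148000722-148002074 and Tnni3 at chr7:4518305-4522718. Ryr2 is at chr13:11553099-12106945 and Mb at chr15:77015487-77050668.

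Promoters are shown because 5 members fell together in OVA lung. RefSeq holds 13 start-site windows for the 10 genes, each with 250 bases before and 50 after the start, and the 250 bases before the start are printed for 5 genes. Capitals mark matches, on either strand, to 5 motifs of heart muscle factors (MEF2, the CArG box, TEAD, GATA and NKX2-5), and on the gene's strand to the TATA box. The first 4 genes hold CATTCC, a site of TEAD factors, on one strand or the other, and are among those that fell. They were set together after the calls were seen, and a link of CATTCC to the fall was not tested. Mb, the other member that fell, has 3 windows and none of the motifs searched in any of them. The other window of Tnnt2 and the windows of Ryr2 and of Myl4, which lay lower in OVA lung without passing, hold none either. Actc1 follows as a member whose level was not called in any comparison. How much of its signal came from other actins was not tested. Nppa and Tnni3, also not called in any comparison, hold no CATTCC and are not printed.

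Myh6, chr14:54966608-54966857, minus strand: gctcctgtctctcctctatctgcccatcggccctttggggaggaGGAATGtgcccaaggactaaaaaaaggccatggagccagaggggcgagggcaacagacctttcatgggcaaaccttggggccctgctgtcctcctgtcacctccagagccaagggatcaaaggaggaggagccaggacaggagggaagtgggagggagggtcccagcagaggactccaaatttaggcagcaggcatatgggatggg
Myl7, chr11:5898783-5899032, minus strand: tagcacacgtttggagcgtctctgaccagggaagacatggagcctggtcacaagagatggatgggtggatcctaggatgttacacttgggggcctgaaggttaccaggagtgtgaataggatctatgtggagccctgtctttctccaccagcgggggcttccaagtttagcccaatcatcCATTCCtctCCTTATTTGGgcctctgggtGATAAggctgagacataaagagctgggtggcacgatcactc
Tnnc1, chr14:31208062-31208311, plus strand: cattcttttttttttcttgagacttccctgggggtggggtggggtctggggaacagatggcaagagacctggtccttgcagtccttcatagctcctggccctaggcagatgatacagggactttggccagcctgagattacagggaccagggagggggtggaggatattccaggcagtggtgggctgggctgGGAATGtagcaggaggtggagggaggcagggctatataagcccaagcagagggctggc
Tnnt2, chr1:135836084-135836333, plus strand: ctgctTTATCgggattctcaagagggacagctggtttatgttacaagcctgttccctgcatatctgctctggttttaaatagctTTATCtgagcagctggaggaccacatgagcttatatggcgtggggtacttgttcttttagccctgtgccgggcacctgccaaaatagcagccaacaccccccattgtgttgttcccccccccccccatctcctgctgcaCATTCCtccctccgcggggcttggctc
Actc1, chr2:114052876-114053125, minus strand: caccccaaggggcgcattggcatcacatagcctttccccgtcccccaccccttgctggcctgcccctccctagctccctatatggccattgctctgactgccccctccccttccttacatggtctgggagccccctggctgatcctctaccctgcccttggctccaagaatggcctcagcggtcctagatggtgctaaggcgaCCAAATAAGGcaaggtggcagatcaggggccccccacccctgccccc

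CATTCC was found in 4 of the 13 member windows and in 14.7% of the 32851 windows of all genes. Counted from the start site to the first base of the match on the gene's strand, it lay at −206 in Myh6, −70 in Myl7, −58 in Tnnc1 and −27 in Tnnt2. A CArG box, the site of serum response factor, was found at −61 in Myl7 and −47 in Actc1, and in 1.63% of all windows. GATAA, a site of GATA factors, was found in Myl7, Nppa, Tnni3 and Tnnt2 and in 25.4% of all windows. TNAAGTG, a site of NKX2-5, was found only in Nppa among the members, and in 11.5% of all windows. No member window held a MEF2 motif, found in 3.19% of all windows. TATAAA on the gene's strand was found in Actc1, Myh6 and Nppa, in Actc1 and Myh6 within the 50 bases after the start that are not printed. All positions hold for the start site of the window, taken as RefSeq gives it, and the Myh6 window lies inside the gene's interval given above. So do the Myl4 window, the Tnnt2 window without matches and the Mb windows other than chr15:77050619-77050918. Whether heart muscle uses these start sites was not tested. TATAAA on either strand was found in 13.6% of all windows. These matches are letters in a window and were not tested as binding sites.

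OVA challenge was compared with saline to see what the allergen altered. Heart muscle genes were lower in OVA lung: 5 of 11 tested probe sets fell, those of Mb, Tnnc1, Myh6, Myl7 and Tnnt2, and 0 rose. Of all tested probe sets, 4.42% were called lower and 5.08% higher. The 3 OVA arrays all lay below the 3 saline arrays for 8 of the 11 member probe sets, against 22% of all tested probe sets. The median log2 change of the 11 was −0.83, beside −0.08 over all tested probe sets. The members were chosen with earlier results of these data known, so these shares, here and below, describe the list and do not test it. Calls are adjusted p-values below 0.05 from limma, adjusted over all tested probe sets, and all intensities are on a common scale between arrays.

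**Figure D1:**
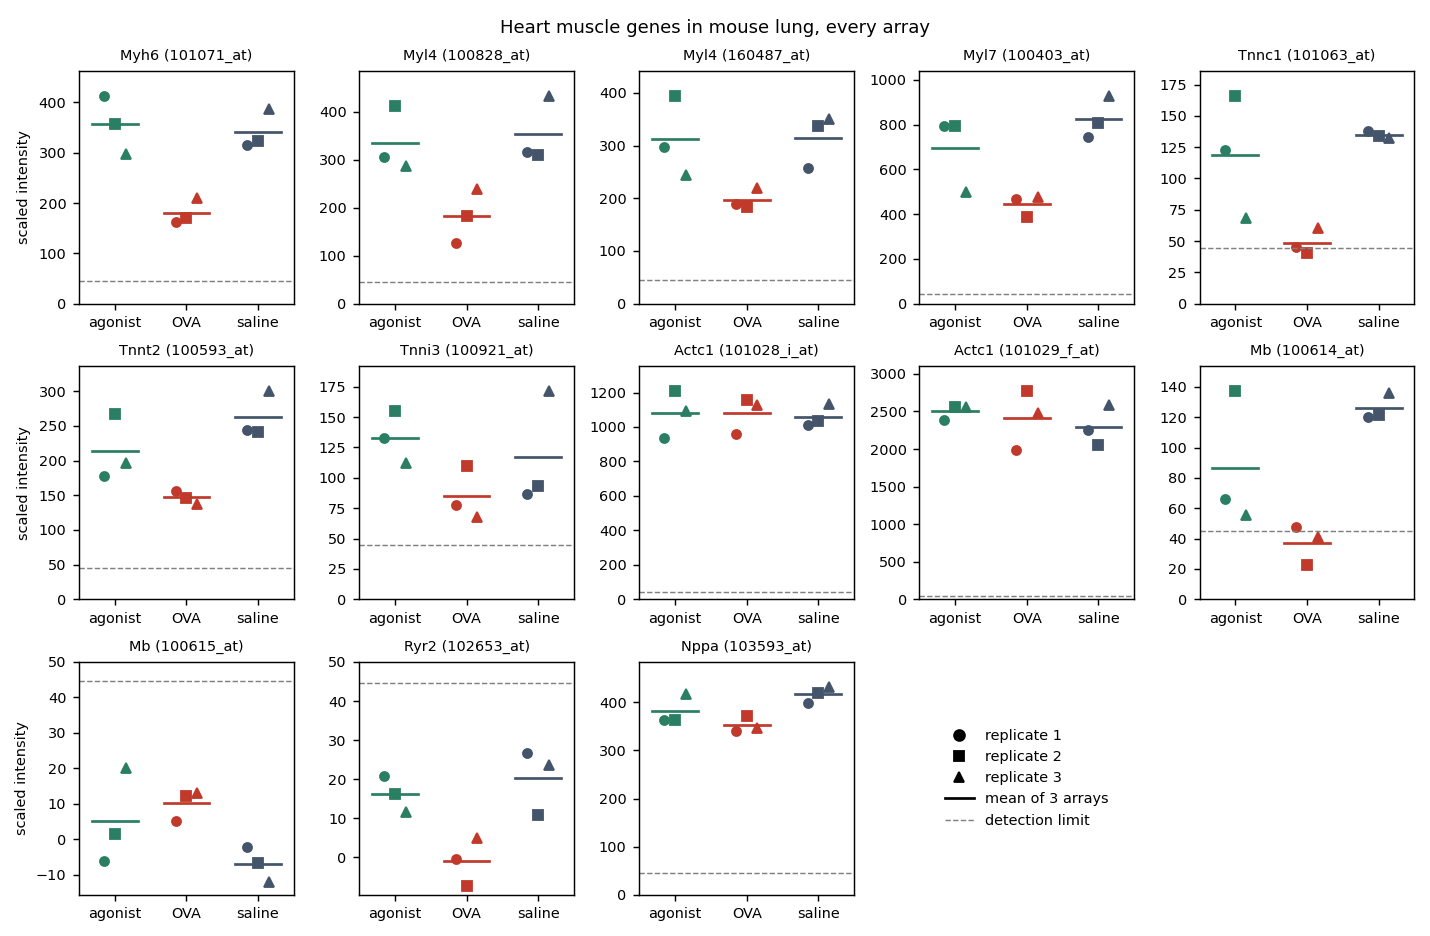
Scaled intensity (vertical axis, linear) of each of the 13 probe sets of the heart muscle genes on every array, by group (agonist, OVA, saline), with the mean of 3 arrays as a bar, the replicate number as the symbol and the detection limit of 44.7 as a dashed line. The OVA arrays sit lowest for Myh6, Myl4, Myl7, Tnnc1, Tnnt2 and Mb (100614_at), while the 3 groups overlap for Actc1.

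Among the myosin genes, Myh6, the atrial heavy chain, read 162, 170 and 209 on the OVA arrays numbered 1, 2 and 3, against 315, 324 and 387 on the saline arrays. Every OVA array lay well below every saline array. The means were 180.5 ± 25.2 in OVA and 342 ± 39.2 in saline lung (SD, n = 3 each), a log2 change of −0.92 ± 0.16 (SE; limma adjusted p = 0.020). Myl7, the atrial regulatory light chain, read 466, 387 and 476 on the OVA arrays, against 742, 805 and 929 on the saline arrays. It fell 1.86-fold (log2 change −0.90 ± 0.20 SE, limma adjusted p = 0.0348), and again the groups did not overlap.

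Myl4, the atrial essential light chain, has 2 probe sets, and neither passed. On 100828_at it read 126, 183 and 239 in OVA, against 317, 311 and 434 in saline lung. On 160487_at it read 189, 184 and 219 in OVA, against 258, 337 and 351 in saline lung. The OVA arrays lay below the saline arrays on both probe sets. The log2 changes were −0.99 ± 0.26 and −0.66 ± 0.20 (SE), with limma adjusted p of 0.0556 and 0.0732.

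Of the troponin genes, Tnnc1, the calcium sensor, changed most. It read 45.4, 40.6 and 60.4 on the OVA arrays, against 138, 134 and 132 on the saline arrays. The saline arrays differed by a few units, while the OVA arrays sat around the detection limit, with replicate 2 below it. The fall was 2.8-fold (log2 change −1.48 ± 0.31 SE, limma adjusted p = 0.0296), or −1.44 with values under the limit held at it. Tnnt2, the tropomyosin-binding subunit, averaged 147 ± 9.26 in OVA and 262 ± 32.9 in saline lung (SD, n = 3 each). Its arrays read 156, 147 and 138 in OVA, against 245, 242 and 300 in saline lung, with no overlap (1.78-fold lower, limma adjusted p = 0.0280). Tnni3, the inhibitory subunit, behaved less evenly: it read 77.8, 109.5 and 67.7 in OVA, against 86.6, 93.3 and 171 in saline lung. These groups overlapped, and saline replicate 3 lay far above the other two saline arrays. Its log2 change of −0.42 ± 0.29 (SE) did not pass (limma adjusted p = 0.381), and was −0.11 without saline replicate 3.

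Cardiac actin was not called in either direction. The Actc1 probe set 101028_i_at averaged 1080 ± 107 in OVA and 1060 ± 65.7 in saline lung (SD, n = 3 each). The probe set 101029_f_at averaged 2416 ± 395 in OVA and 2295 ± 267 in saline lung (SD, n = 3 each). The groups overlapped on both. The log2 changes were 0.02 and 0.07, with 95% confidence intervals of −0.26 to 0.31 and −0.26 to 0.40 (limma adjusted p = 0.916 and 0.789). In the maker's naming the ending _f_at marks probes shared by a gene family, and actins are nearly alike in sequence. The Actg2 probe set 93102_f_at, for an actin of visceral smooth muscle, was not called (log2 change 0.01, limma adjusted p = 0.950). Acta2, the actin of vascular and airway smooth muscle, was higher, at 2036 ± 268 in OVA and 1155 ± 60.5 in saline lung (SD, n = 3 each; limma adjusted p = 0.0181). How much of the Actc1 signal came from other actins was not tested.

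Mb, the oxygen-binding myoglobin, read 47.9, 22.6 and 41.2 on the OVA arrays, against 120, 122 and 136 on the saline arrays. All saline arrays were far above the detection limit, and only OVA replicate 1 exceeded it. The log2 change was −1.82 ± 0.38 (SE, limma adjusted p = 0.0308), or −1.46 with values under the limit held at it. The untested Mb probe set read 5.26, 12.2 and 13.02 in OVA, against −2.15, −6.69 and −12.0 in saline lung, all below the detection limit. Ryr2, the calcium release channel, read −0.37, −7.35 and 5.01 in OVA, against 26.7, 10.7 and 23.7 in saline lung. Those Ryr2 readings did not overlap, but all lay under the limit and no fold is given.

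Nppa, the hormone precursor, read 340, 371 and 347 on the OVA arrays, against 398, 419 and 432 on the saline arrays. The groups did not overlap, yet the log2 change was −0.24 ± 0.09 (SE) and did not pass (limma adjusted p = 0.126).

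**Figure D2:**
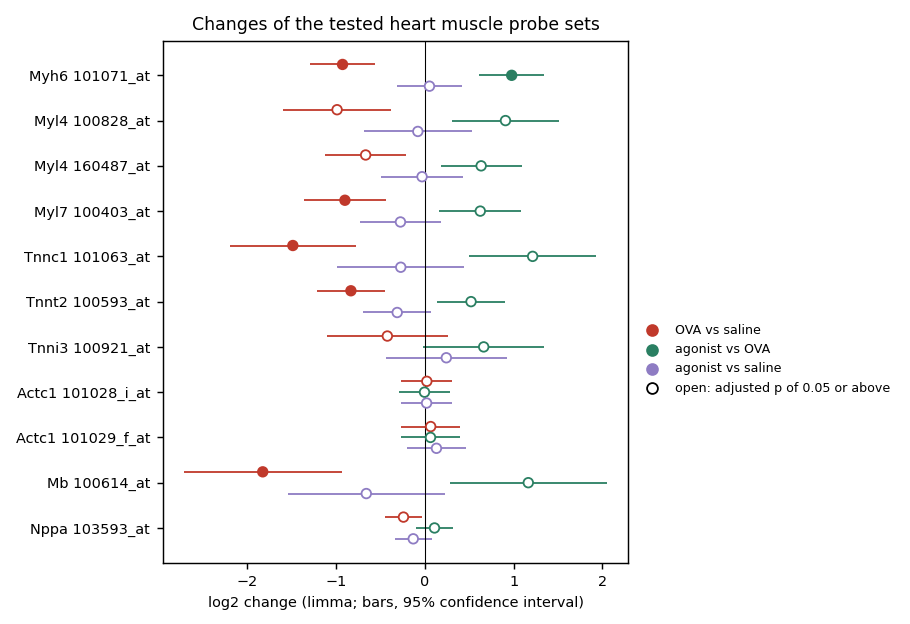
Log2 change (horizontal axis) of the 11 tested probe sets for OVA against saline, agonist against OVA and agonist against saline, with 95% confidence intervals from limma and filled points for an adjusted p below 0.05. The 5 filled points of OVA against saline are Myh6, Myl7, Tnnc1, Tnnt2 and Mb, the only filled point of agonist against OVA is Myh6, and agonist against saline has 0.

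The arrays in hand limit how firmly these falls can be stated. Without any 1 saline array, or without OVA replicate 1 or 2, 0 of the 11 probe sets passed, and without OVA replicate 3 there were 3, of Myh6, Tnnc1 and Myl4 (100828_at). Over all tested probe sets, 80 to 150 were called in the fits with 0 members, against 752 with all 9 arrays. Over the arrays left out the log2 changes ran from −1.04 to −0.83 for Myh6 and from −1.65 to −1.36 for Tnnc1.

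The agonist arrays were set against the OVA arrays to see what EP3 agonist changed in challenged lung. Heart muscle genes tended to lie higher with agonist, but only Myh6 passed: 1 of 11 was called higher and 0 lower, against 1.25% and 1.5% of all tested probe sets. The 3 agonist arrays lay above the 3 OVA arrays for 8 of the 11 member probe sets, against 17.8% of all tested probe sets. The median log2 change of the 11 was 0.63, beside 0.06 over all tested probe sets. This comparison shares its OVA arrays with that of OVA and saline, so the changes are not independent of each other.

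Myh6 read 413, 358 and 298 on the agonist arrays numbered 1, 2 and 3, against 162, 170 and 209 on the OVA arrays. The lowest agonist array lay above the highest OVA array. The agonist mean was 357 ± 57.6, against 180.5 ± 25.2 in OVA lung (SD, n = 3 each), 1.97-fold higher (log2 change 0.98 ± 0.16 SE, limma adjusted p = 0.0366). The other members that were lower in OVA lung had values above it but did not pass. Tnnc1 read 123, 166 and 68.1 with agonist, against 45.4, 40.6 and 60.4 in OVA lung. The groups did not overlap, although agonist replicate 3 lay just above OVA replicate 3. The log2 change was 1.21 ± 0.31 (SE, limma adjusted p = 0.0726).

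Myl7 read 795, 791 and 500 with agonist, against 466, 387 and 476 in OVA lung (log2 change 0.62 ± 0.20 SE, limma adjusted p = 0.113). Its replicate 3 was close to the OVA arrays while the other two lay within the saline range. On the 2 probe sets of Myl4 the arrays read 306, 413 and 288 and then 297, 395 and 244 with agonist, and on each probe set they exceeded all OVA arrays. The Myl4 log2 changes were 0.91 ± 0.26 and 0.63 ± 0.20 (SE), with limma adjusted p of 0.0940 and 0.108.

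Tnnt2 read 178, 267 and 196 with agonist, against 156, 147 and 138 in OVA lung (log2 change 0.52 ± 0.17 SE, limma adjusted p = 0.113). Mb read 66.4, 137 and 55.4 with agonist, against 47.9, 22.6 and 41.2 in OVA lung. Only agonist replicate 2 reached the saline level of Mb, and the log2 change of 1.17 ± 0.38 (SE) did not pass (limma adjusted p = 0.121). Tnni3 read 132, 155 and 112 with agonist, against 77.8, 109.5 and 67.7 in OVA lung (log2 change 0.66 ± 0.29 SE, limma adjusted p = 0.217). The remaining members overlapped between agonist and OVA lung: Nppa had a log2 change of 0.11 (limma adjusted p = 0.487), and the Actc1 probe sets 0.00 and 0.06. Ryr2 read 20.9, 16.3 and 11.7 with agonist, again under the detection limit on every array.

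The agonist arrays differed widely for some members: the coefficient of variation of Mb was 51.4% with agonist, 35.1% in OVA and 6.92% in saline lung, and that of Tnnc1 41.3%, 21.1% and 2.11% in the same order. Replicate 2 was the highest agonist array for 7 of the 11 probe sets, and replicate 3 the lowest for 7. As a median over the 11 probe sets, the log2 level minus the saline mean was −0.13, 0.17 and −0.28 on agonist arrays 1, 2 and 3. It was −0.74, −0.83 and −0.70 on the OVA arrays and −0.09, −0.05 and 0.18 on the saline arrays. By this measure agonist arrays 1 and 3 lay above the OVA arrays and below every saline array, and agonist array 2 lay within the saline range. The summed intensity of 15 macrophage markers was 11828, 12088 and 16844 on agonist arrays 1, 2 and 3, 19397 to 21527 in OVA and 9750 to 10684 in saline lung. Its part in the heart muscle values was not tested. Without agonist replicate 3, Myh6, Myl7 and Tnnc1 passed against OVA (limma adjusted p = 0.0135, 0.0220 and 0.00911), and 0 of 11 did without agonist replicate 1 or 2, OVA replicate 1 or 2 or any 1 saline array. Calls over the whole array moved too: 526 of 7851 probe sets passed without agonist replicate 3, 222 of them higher, against 218 with all 9 arrays.

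**Figure D3:**
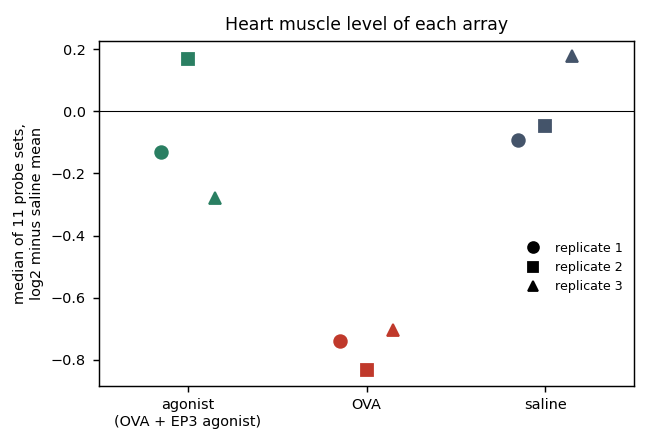
Median over the 11 tested heart muscle probe sets of the log2 intensity minus the mean of the saline arrays (vertical axis, log2 units), 1 point for each array, by group with the replicate number as the symbol. The OVA arrays lie at −0.74, −0.83 and −0.70, apart from the agonist and saline arrays, whose ranges overlap.

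Agonist lung was also compared with saline lung. None of the members was called: 0 of 11 passed limma's test in either direction and 0 had an unadjusted p below 0.05, while 0.0379% of all tested probe sets were called higher and 0.0379% lower. The 2 groups overlapped for each of the 11. Myh6 averaged 357 ± 57.6 with agonist and 342 ± 39.2 with saline (SD, n = 3 each), a log2 change of 0.05 with a 95% confidence interval of −0.31 to 0.42. For Tnnc1 the change was −0.27, with an interval of −0.98 to 0.44, and for Mb −0.66, with an interval of −1.54 to 0.23. Each interval includes 0, and those of Tnnc1 and Mb also hold large falls, so alike levels are not shown.

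Other heart genes, from lists drawn up with earlier results of these data known, were counted by gene, while the members were counted by probe set. Each tested list gene, here and below, was counted on its brightest tested probe set by mean over the 9 arrays. The share of all tested probe sets called lower, 4.42%, applies to each count, and a single call among 9 to 14 genes is not a result about its list. Of 9 tested further sarcomere genes 1 fell in OVA lung and 0 rose, with a median log2 change of −0.32. The faller was Myh7, the heavy chain of slow and ventricular muscle, on a probe set (98616_f_at) that also carries the family ending. It read −8.01, 7.55 and 11.1 in OVA, against 78.9, 57.1 and 140 in saline lung, at least 1.92-fold lower (limma adjusted p = 0.0128, and 0.120 with values under the limit held at it). With agonist it read 112, 101 and 53.2, at least 1.89-fold above OVA (limma adjusted p = 0.0356, and 0.159 with values held at the limit). The other Myh7 probe set, 161547_f_at, lay below 0 on every array and was not tested. It averaged −75.0 in OVA, −102 in saline and −100 in agonist lung, so it did not show the fall.

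Of 13 genes of calcium handling and cardiac ion channels, 1 fell in OVA lung, 0 rose and the median was −0.24. It was Atp2a2, the pump that returns calcium to the sarcoplasmic reticulum, which many other cell types also use. Atp2a2 averaged 178 ± 14.1 in OVA and 279 ± 31.3 in saline lung (SD, n = 3 each; 1.57-fold lower, limma adjusted p = 0.0221). With agonist it averaged 271 ± 20.4, 1.53-fold above OVA (limma adjusted p = 0.0444).

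Of 14 genes of heart muscle energy metabolism, 1 fell and 0 rose, with a median of −0.35. Fabp3, the fatty acid carrier of heart muscle, read 34.9, 22.7 and 30.5 in OVA, against 64.4, 45.3 and 76.2 in saline lung. All OVA arrays lay under the detection limit, which puts Fabp3 at least 1.35-fold lower (limma adjusted p = 0.0292, and 0.129 with values held at the limit). Cox6a2, a cytochrome oxidase subunit of heart and skeletal muscle, averaged 85.3 ± 36.9 in OVA and 162 ± 54.5 in saline lung (SD, n = 3 each) and did not pass (limma adjusted p = 0.139).

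Of 9 heart transcription factors 2 fell and 0 rose, with a median of −0.41: Hey1, a Notch target that endothelium also expresses (log2 change −0.59, limma adjusted p = 0.0150), and Hopx, which alveolar type 1 cells also express (log2 change −0.48, limma adjusted p = 0.0379). Nkx2-5, Hand2 and Isl1, which mark the cardiac lineage, lay at or below the detection limit on all 9 arrays. The 9 tested factors exceeded that limit on all 9 arrays, among them Gata4 at 50.1 to 143. Of the natriuretic peptides and receptors other than Nppa only Npr3 was tested, and the list also held Bmp10. Npr3, the clearance receptor, averaged 89.4 ± 22.6 in OVA and 199 ± 4.83 in saline lung (SD, n = 3 each; 2.27-fold lower, limma adjusted p = 0.0348), and Bmp10, a growth factor of the atria, did not pass (limma adjusted p = 0.435).

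In agonist against OVA lung, where 1.25% of all tested probe sets were called higher and 1.5% lower, these lists gave few calls. They were Myh7 among the sarcomere genes, Atp2a2 in calcium handling, Hey1 among the factors and, in energy metabolism, the lipoprotein lipase Lpl, all higher, and 1 lower, the gap junction gene Gja1. Lpl and Gja1, named after their values were seen, had log2 changes of 0.41 and −0.57 (limma adjusted p = 0.0444 and 0.0481). Npr3 averaged 191 ± 70.4 with agonist and 89.4 ± 22.6 in OVA lung (SD, n = 3 each) and, like Bmp10, did not pass (limma adjusted p = 0.0691 and 0.509). These agonist calls rest on the full set of arrays. With 1 array left out Atp2a2 passed only without agonist replicate 3, Hey1 only without agonist or OVA replicate 3, and Myh7 only without replicate 3 of any group, with limma adjusted p up to 0.155, 0.131 and 0.106. None of these 3 passed with only the 6 arrays compared or with a replicate block, and the values of these fits are not given for Lpl and Gja1.

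**Figure D4:**
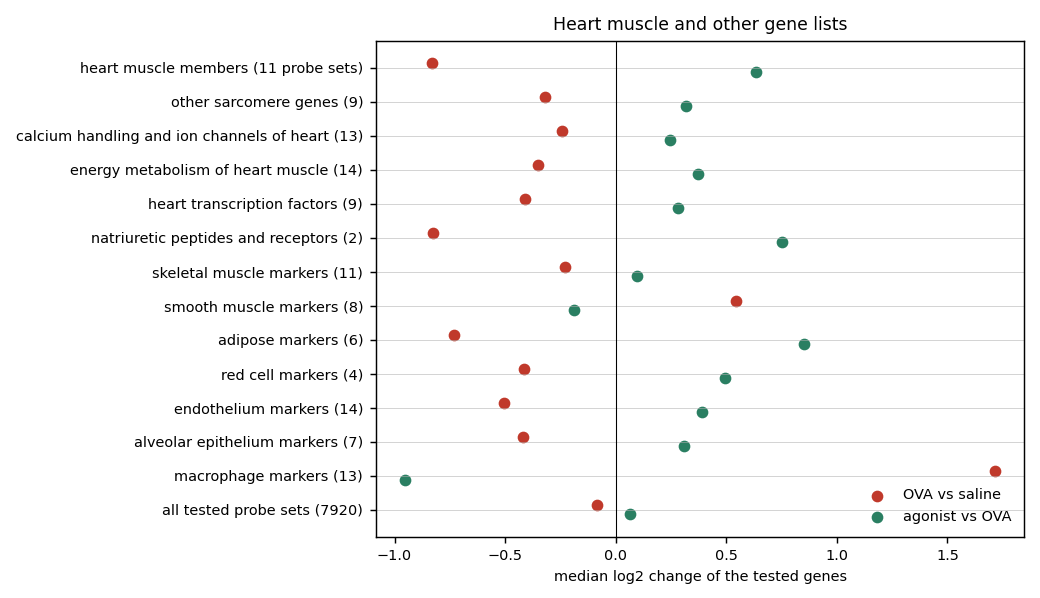
Median log2 change (horizontal axis) of the heart muscle probe sets, of 12 other gene lists and of all 7920 tested probe sets. The comparisons are OVA against saline and agonist against OVA. Lists have the number of tested genes in brackets, each gene by its brightest tested probe set. The heart muscle median is −0.83 for OVA against saline, smooth muscle markers lie at 0.55 and macrophage markers at 1.71, and the 2 comparisons share the OVA arrays.

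Markers of other cells moved beside the heart muscle genes, and their summed intensities are given as ranges over 3 arrays. Beside each count, here and in the next paragraph, stand 4.42% of all tested probe sets called lower in OVA lung and 5.08% called higher. Of 8 smooth muscle markers 4 rose in OVA lung and 0 fell, with sums of 7791 to 8332 with agonist, 8748 to 10416 in OVA and 7060 to 7890 in saline lung. Of 11 tested skeletal muscle markers 0 passed limma's test in either direction, and the sums of 1309 to 1630 with agonist, 1299 to 1636 in OVA and 1388 to 1784 in saline lung overlapped. Endothelial markers fell in 7 of 14 cases, with sums of 17071 to 18221 with agonist, 13211 to 14501 in OVA and 17702 to 18026 in saline lung.

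Adipose markers fell in 3 of 6 cases, with sums of 910 to 1295 with agonist, 550 to 663 in OVA and 871 to 941 in saline lung. Alveolar epithelial markers fell in 4 of 7, with sums of 30409 to 31767 with agonist, 22148 to 26101 in OVA and 28263 to 32605 in saline lung. Red cell markers fell in 2 of 4, with sums of 8646 to 10405 with agonist, 6050 to 6871 in OVA and 9462 to 11032 in saline lung. A sum mostly follows its brightest genes. Hba-a1 alone read 5459 to 10078, while Slc4a1 and Klf1 were not called (limma adjusted p = 0.695 each). Sftpc, the brightest alveolar marker, read 10138 to 14984 and was not called in OVA lung (limma adjusted p = 0.198). In all 4 of these lists, from endothelium to red cells, the agonist range of the sums lay above the OVA range and overlapped the saline range. Of 13 tested macrophage markers 12 rose in OVA lung and 1 fell, Lyz2, named after its value was seen (log2 change −0.43, limma adjusted p = 0.0492). The part of these cells in the heart muscle result was not tested.

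The 5 probe sets of other genes most like Myh6, by Pearson's r of log2 intensity over the 9 arrays, were those of Cyp4b1 (0.988), Agap1 (0.986), Pdgfra (0.985), Eng (0.985) and Igfbp6 (0.985). Cyp4b1 is a cytochrome P450 abundant in lung, Pdgfra a receptor of fibroblasts and Eng a receptor of endothelium. Eng averaged 4267 ± 201 with agonist, 2830 ± 229 in OVA and 4134 ± 260 in saline lung (SD, n = 3 each). Members correlated with Myh6 at 0.912 (Tnnc1), 0.909 and 0.886 (Myl4), 0.900 (Myl7), 0.790 (Mb), 0.765 (Tnnt2), 0.660 (Tnni3) and 0.563 (Nppa), and the Actc1 probe sets at −0.02 and 0.10. The 9 points fall into 3 groups and share the array scaling, so r is a description here and carries no test.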

How the data were processed

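Lung RNA was measured on 9 one-colour arrays, and the deposited values are intensities per probe set on a linear scale. How the authors made them is not given in the sources used here. Values below 0 occur on every array and array levels differ (2% trimmed means of 138.7 to 241), so each array was scaled to the mean of the 9 trimmed means by a factor of 0.741 to 1.29. Intensities under 3.10 (20th percentile) were raised to it before log2. Probe sets above 44.7 (40th percentile, the detection limit) on at least 3 of 9 arrays were tested: 7920 of 12422, after 66 controls were left out. Groups were compared with limma 3.58.1 (R 4.3.3; lmFit, eBayes) in 1 fit of 9 arrays (residual df 6, prior df 1.69). p-values are two-sided and Benjamini-Hochberg adjusted over all tested probe sets, with a threshold of 0.05. A bound ("at least") divides the geometric mean of the brighter group by the limit. Symbols come from the array's probe table: of 10833 probe sets with 1 symbol, 10817 matched RefSeq (GRCm38.p6, 0 changed), while 396 probe sets have several symbols and 1193 none. The members and lists were chosen with earlier results of these data known. Named were all members, up to 4 genes of each list with the largest OVA change (passing ones first) and the 5 most like Myh6. Bars give a 95% interval. Alternatives changed the scaling, floor, filter, variance model, array weights, arrays in the fit, replicate block and threshold, or left out each array in turn. Genes of the lists under the limit on all arrays and Gja1, Lpl, Lyz2, Sftpc, Tnnc2, Pvalb, Casq1 and Myod1 were named outside this rule. The number of arrays limits the precision.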

Additional observations from a re-analysis of the deposited data

How the results depend on the processing

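Direction was kept for Myh6, Myl7, Tnnc1, Tnnt2 and Mb (100614_at) in OVA against saline and agonist against OVA under every alternative run. For OVA against saline the count of member probe sets called was 5 in the analysis reported and 3 with no filter on dim probe sets. It was 0 with a replicate block and 0 to 5 with each array left out. It was 5 to 7 under the other alternatives. For agonist against OVA it was 1 in the analysis reported, 2 with the filter at the 60th percentile or with array weights, 0 with only the 6 arrays compared or a replicate block, 3 at an adjusted p of 0.1 and 0 to 3 with each array left out. The cause of these moves was not tested, apart from fewer arrays, or more probe sets to adjust over, that the alternatives bring by construction. For agonist against saline it was 0 throughout. Same-numbered arrays deviated together weakly if at all (r of −0.14 to 0.17 between their deviations from the group means). The control bioC, after scaling, read 806, 409 and 631 on saline arrays 1, 2 and 3. It read 649, 290 and 501 on the OVA arrays and 917, 369 and 658 on the agonist arrays. Replicate 1 was thus highest and replicate 2 lowest in every group, and the control bioD had the same order. What arrays of the same number shared was not tested, so the replicate block is not set aside.
The changes that reversed were small and uncalled. Under quantile normalization the Actc1 probe set 101028_i_at stood at −0.0019 for OVA against saline and 0.00935 for agonist against OVA, where array weights gave 0.029. Array weights also turned agonist against saline for Myl4, to 0.058 (100828_at) and 0.10 (160487_at). With each array left out, OVA against saline ran from −0.029 to 0.11 and −0.039 to 0.20 for the 2 Actc1 probe sets, and agonist against OVA from −0.087 to 0.096 and −0.068 to 0.17. Agonist against saline then ran from −0.060 to 0.18 for Myh6, −0.24 to 0.078 and −0.21 to 0.13 for Myl4, −0.064 to 0.12 for Actc1 (101028_i_at) and −0.56 to 0.087 for Tnnc1. Over all probe sets, OVA against saline gave 402 higher and 350 lower calls, and 435 higher and 254 lower with arrays at equal medians. Those 752 calls became 50 with the block, 80 to 857 with each array left out and 1511 at an adjusted p of 0.1. The 218 calls of agonist against OVA became 14 with the block, 18 with only the 6 arrays, 361 to 498 with the higher floor, the stricter filter, the intensity trend or array weights, 7 to 526 with each array left out and 831 at 0.1. The 6 of agonist against saline became 2 with the block and 3 with the stricter filter, and 16 without agonist replicate 2. Of the other genes named as called in OVA against saline, Atp2a2, Hey1, Npr3 and Acta2 did not pass without any 1 saline array or OVA replicate 1 or 2, nor Hopx without these or agonist replicate 2. Fabp3 did not pass without any 1 OVA array or saline replicate 1 or 3.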
